A study of Mus musculus with 2 samples.

Results

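A block of chromosome 2 that carried several times more reads than its surroundings in 1 of 2 osteoblast libraries is described here. It was taken from the deposited reads by position. The window ran over 2000 kb of chromosome 2, from 76800001 to 78800000, in 200 bins of 10 kb. The 20 bins from 77700001 to 77900000 formed the core and the other 180 bins its flanks. Over chromosomes 1 to 19, 211288 bins of 10 kb held 10 or more distinct positions in the libraries together. A distinct position is a chromosome, 5′ end and strand at which at least 1 read began. The core had been picked because its positions differed between the libraries, so its counts and ratios are descriptions and carry no test. The name of the block points to the R2d repeat and its gene Cwc22.

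Cwc22 encodes a splicing factor of the spliceosome that also helps to place the exon junction complex on messenger RNA. It lies in R2d, a long stretch of mouse chromosome 2 whose number of copies varies widely among mice. R2d1 is the place of the repeat in the reference genome. R2d2, a second place further along the chromosome, is absent from the reference and is known for being passed on in excess by females that carry many copies of it. As background, reads from every copy of a repeat that the reference holds once align to that single place, where they raise the read density over the whole stretch.

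The reads came from chromatin immunoprecipitation followed by sequencing (ChIP-seq) in primary osteoblasts, the bone-forming cells, of 129sv mice. The antibody was directed against Tnni2, a troponin I found in fast muscle fibres. Mice carrying Tnni2del175k on both chromosomes gave the mutant library, and their wild-type littermates gave the other. The submitters state n = 3 without saying how animals were pooled, and name mouse reference 8. Each genotype had 1 library, so no difference given here has a replicate check, and the genotypes as such were not compared. No input library was analysed here, so more DNA copies and more DNA recovered with the antibody cannot be told apart from density alone.

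On chromosomes 1 to 19 there were 2927228 distinct positions for the mutant and 2821498 for wild type, from 3273273 and 3305140 aligned reads in all. All ratios are mutant over wild type after scaling to these autosomal positions, with 95% exact intervals that cover counting error only. The last read on chromosome 7 ended at 152524453. From general knowledge of mouse builds this lies past the end of that chromosome in mm8 and GRCm38, and within it in mm9. Coordinates are therefore given as the files hold them, with the build uncertain. No annotation or sequence of that build was used, so no bin was assigned to a gene and no sequence of the block is shown. In the RefSeq gene order of GRCm38, the protein-coding genes before Cwc22 are Ttn (the giant muscle protein titin), Ccdc141, Sestd1 and Zfp385b (a zinc finger protein). Those after it are Gm14461, Ube2e3 (a ubiquitin-conjugating enzyme) and Itga4 (integrin alpha 4). From general knowledge Cwc22 lies inside the block in mm9, but this placement and the extent of R2d1 were not checked against the reads.

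The mutant library held a broad plateau in the core, and the wild-type library a lower and less clear one there. The core had 1395 distinct mutant positions and 413 wild-type ones, or 6.98 and 2.07 per kb. In the flanks the libraries had 2225 and 2084 positions, or 1.24 and 1.16 per kb. The core density was thus 5.64 times that of the flanks in the mutant library (5.27 to 6.04) and 1.78 times in wild type (1.60 to 1.98). The depth-scaled ratio of the core was 3.26 (2.92 to 3.64). The libraries differed in how high the block stood, while their flanks were at nearly the same level.

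**Figure D1:**
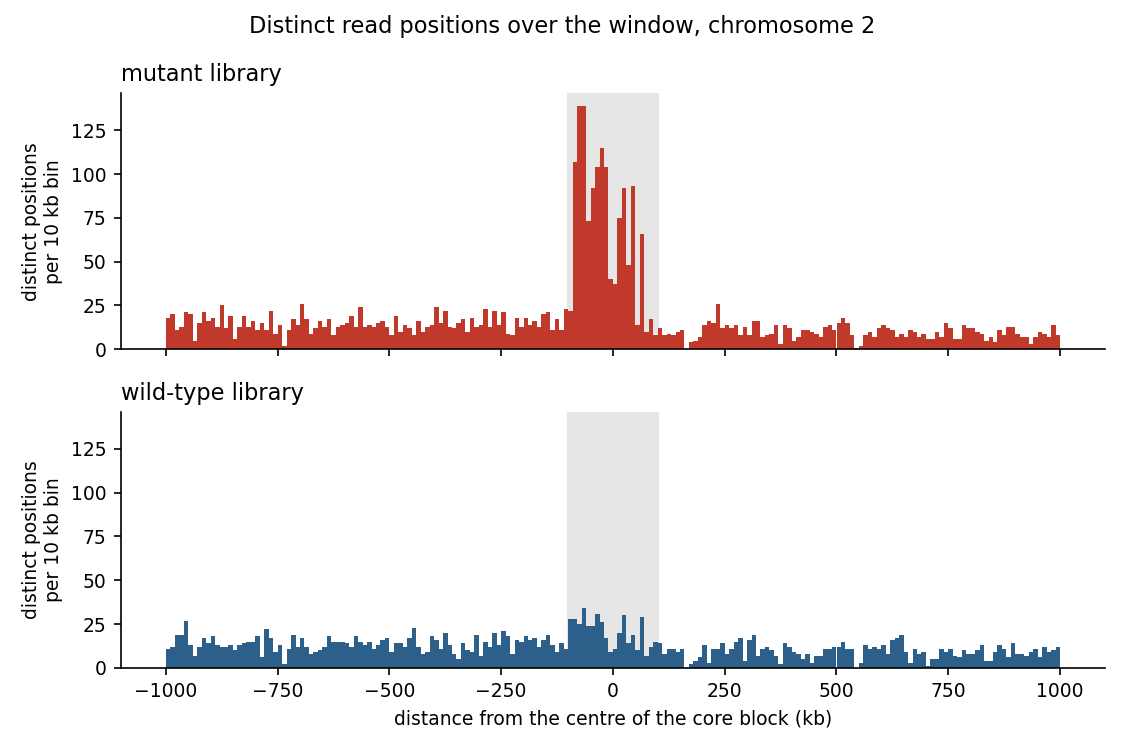
Distinct positions in each of the 200 bins of 10 kb (bars), by distance from the centre of the core in kb, for the mutant library (top) and the wild-type library (bottom) on the same axis. The core is shaded. Mutant bins reach 139 in the core and at most 26 in the flanks, and wild-type bins reach 34 in the core and at most 27 in the flanks.

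The bins of 10 kb showed how far the 2 plateaus stood clear of their flanks. In the mutant library the core bins held between 8 and 139 positions, with a median of 74, and the flank bins between 0 and 26, with a median of 12. In wild type the core bins held between 7 and 34, with a median of 22, and the flank bins between 0 and 27, also with a median of 12. In the mutant library 15 of 20 core bins lay above every flank bin, and in wild type 6 did. The other core bins overlapped the range of the flanks.

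Along the core the counts rose within a single bin on the left. The bin from 77690001, just outside the core, held 23 mutant and 11 wild-type positions, and the first core bin, from 77700001, held 22 and 28. The next bin, from 77710001, held 107 and 28, a ratio of 3.68 (2.41 to 5.80). The mutant library was fullest in the 2 bins from 77720001 and 77730001, with 139 positions in each, where the wild-type library held 25 and 34. Both libraries were thus raised here, and the mutant library far more.

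In the middle of the core both libraries dipped and recovered together. The bins from 77740001, 77750001 and 77760001 held 73, 92 and 104 mutant positions against 24, 24 and 31 in wild type. Those from 77770001 and 77780001 held 115 and 104 against 26 and 17, and the second of these had the highest ratio of the core, 5.90 (3.51 to 10.5). The bins from 77790001 and 77800001 held only 40 and 37 mutant positions and 9 and 11 wild-type positions, so the dip was shared. Their ratios of 4.28 (2.05 to 10.04) and 3.24 (1.62 to 7.05) had intervals that overlapped those of their neighbours.

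On the right the counts dropped and rose again before the block ended. The bins from 77810001, 77820001, 77830001 and 77840001 held 75, 92, 48 and 93 mutant positions against 20, 30, 14 and 19 wild-type positions. The bin from 77850001 dropped to 14 and 10, and the bin from 77860001 held 66 and 29 again, a ratio of 2.19 (1.40 to 3.52). The last 3 core bins, from 77870001, 77880001 and 77890001, held 10, 17 and 8 mutant positions and 7, 12 and 15 wild-type positions. These values lay within the range of the flank bins in both libraries, as did the 12 and 14 positions of the first bin beyond the core.

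A ratio of 2 or more was reached by 15 of the 20 core bins and by 12 of the 171 flank bins with 10 or more positions. Over all autosomal bins with that many positions the share was 7.4%, and 5.19% had a ratio of 0.5 or less. No core bin and 9 flank bins had a ratio of 0.5 or less. The core was chosen on this contrast, so its share is a description, and the 7.02% of the flank bins lay near the share of the autosomes. With bins of 5 kb 28 of 34 core bins reached that ratio, beside 10.6% of the autosomal bins, and with bins of 20 kb 9 of 10 did, beside 3.69%. The median ratio was 3.27 over the core bins and 0.964 over the flank bins. The interval of the ratio excluded 1 in 15 core bins and in 3 of 180 flank bins. These flank bins began at 77350001 (8 mutant and 23 wild-type positions), 78010001 (16 and 3) and 78030001 (26 and 11). No autosomal share is given for this count, and its value in the core restates how the core was chosen.

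**Figure D2:**
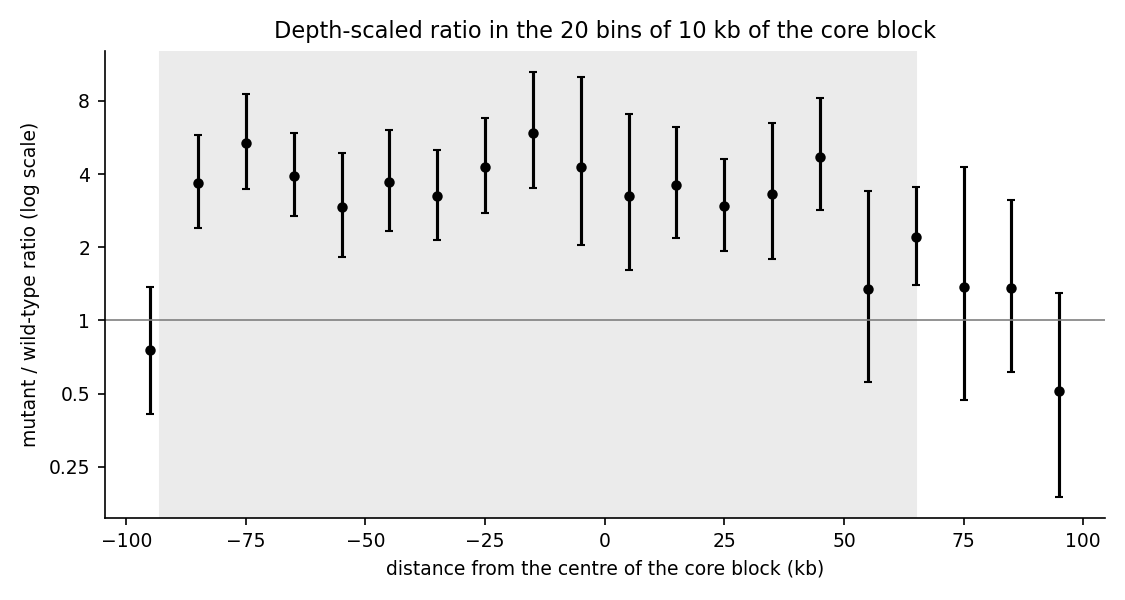
Depth-scaled mutant to wild-type ratio (log scale) of the 20 core bins of 10 kb, by distance from the centre of the core in kb. Points are ratios, bars are 95% exact intervals that cover counting error only, the line marks a ratio of 1 and the fitted block is shaded. Ratios of the 14 adjacent bins from 77710001 to 77850000 all lie at 2 or more, and the intervals of the first bin, of the bin from 77850001 and of the last 3 include 1.

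The flanks themselves were uneven. By the positions of both libraries together, the fullest bin of the left flank, from 76840001, held 21 mutant and 27 wild-type positions, and its emptiest, from 77060001, held 2 and 2. The fullest bin of the right flank, from 78030001, held 26 and 11, and its emptiest, from 77960001, held none in either library. The median bin held 14 mutant and 13.5 wild-type positions on the left, against 9.5 and 10 on the right. The fullest bins differed between the libraries, since 77100001 held the most mutant positions on the left, 26 against 17, and wild type on the right was highest at 78110001 and 78440001, with 19 each. The left flank was the denser side in both libraries, and a level over the flanks depends on the side used.

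The edges were placed with a step model, in which 1 stretch of 1 kb bins is raised over a flat flank and the best stretch is the one of highest Poisson likelihood. In the mutant library the raised stretch ran from 77707001 to 77865000, a length of 158 kb. No other start or end came within 2 log-likelihood units. The fit of both libraries with shared edges gave the same stretch, which is called the fitted block from here on. The mutant share of positions alone, which does not depend on how evenly reads fall along the sequence, changed from 77708001 (77707001 to 77709001 within 2 units) to 77865000 (77865000 to 77866000).

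In wild type alone that model did not set the plateau apart from the denser left flank. The best stretch was 1060 kb long, from 76807001 to 77867000, and took in nearly all of the left flank. A model with a level of its own for each flank, chosen after the data were seen, placed the wild-type stretch from 77701001 (77697001 to 77702001) to 77867000 (77865000 to 77869000), 166 kb in length. With the same model the mutant stretch was unchanged. The right edges of the libraries then lay within 2 kb of each other and the left edges 6 kb apart. With reads of a single strand, wild-type edges were looser. Minus-strand reads placed the wild-type stretch from 77700001 (77687001 to 77712001) to 77834000 (77833000 to 77868000). Plus-strand reads placed it from 77701001 (77692001 to 77714001) to 77868000 (77865000 to 77910000). Both of these ranges for the wild-type start take in the mutant start, so single strands did not set the left edges apart. The mutant start and end each moved by at most 1 kb between strands, but the right edge of the mutant share lay at 77849000 (77848000 to 77867000) with plus-strand and at 77886000 (77881000 to 77887000) with minus-strand reads. The 7 kb of the core before the fitted block held 4 mutant and 20 wild-type positions, a ratio of 0.193 (0.0479 to 0.575), and were singled out after their values were seen.

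The change at each edge was abrupt in the mutant library. The 10 kb before the block held 15 mutant and 23 wild-type positions, and the first 10 kb inside it held 90 and 26. On the right the last 10 kb inside held 74 and 31, and the 10 kb after it held 8 and 9. The 35 kb of the core beyond the right edge held 38 and 40 positions, a ratio of 0.916 (0.572 to 1.46). Mutant positions thus fell to the level of the flanks within 1 bin, and wild-type positions did so on the right only.

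Within the fitted block 1353 mutant and 353 wild-type positions were counted, or 8.56 and 2.23 per kb, a ratio of 3.69 (3.28 to 4.17). The block stood at 6.96 times the flanks in the mutant library (6.50 to 7.45) and at 1.92 times in wild type (1.71 to 2.15). Measured against the left flank alone, the levels were 5.77 and 1.61 times, and against the right flank alone 8.69 and 2.37 times. The flanks of the block had a ratio of 1.02 (0.960 to 1.08), with 1.03 on the left (0.952 to 1.11) and 1.01 on the right (0.916 to 1.10). The intervals of the flanks include 1, and the block itself had been picked for its difference. The excess over a flank level of 1 was 5.96 in the mutant library and 0.919 in wild type, 6.48 times as large. That multiple has no interval. It rests on the small wild-type excess, so it shifts with counting error and with the flank used.

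Part of the block held no reads in either library. Stretches of 3 kb or more without a position in either library numbered 4 in the block and made up 24 kb, or 15.2% of its length. In the rest of the window there were 23 such stretches with 115 kb, or 6.24%. Those in the block ran from 77790001 to 77797000, from 77802001 to 77806000, from 77836001 to 77842000 and from 77851001 to 77858000, and they lie under the dips described above. With all such stretches left out of block and flanks, the levels rose to 7.69 times the flanks in the mutant library (7.19 to 8.23) and 2.12 times in wild type (1.89 to 2.38).

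The gaps cut the block into 5 covered stretches, and each was raised in both libraries. Their levels are set against the whole flanks, empty stretches included, with 1.23 mutant and 1.16 wild-type positions per kb. The covered flanks held 1.31 and 1.24 per kb, so these levels are higher than on the basis of the 7.69 and 2.12 times above. The first, 83 kb long from 77707001, held 891 mutant and 217 wild-type positions and stood at 8.72 (8.06 to 9.43) and 2.25 (1.94 to 2.58) times the flanks. The second, 5 kb from 77797001, held 56 and 15 positions, at 9.10 (6.85 to 11.9) and 2.58 (1.44 to 4.26) times the flanks. The third, 30 kb from 77806001, held 236 and 69 positions and had the lowest mutant level, 6.39 times (5.57 to 7.31), with 1.98 (1.53 to 2.51) in wild type. The mutant interval of the third stretch lay below that of the first, while the wild-type intervals overlapped.

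The right end of the block had the highest wild-type level. The fourth stretch, 9 kb from 77842001, held 96 mutant and 21 wild-type positions, at 8.67 (6.99 to 10.6) and 2.0 (1.24 to 3.07) times the flanks. The fifth, 7 kb from 77858001, held 74 and 31 positions, at 8.59 (6.72 to 10.8) and 3.80 (2.58 to 5.42) times the flanks. The ratios of the 5 stretches in order were 3.96, 3.60, 3.30, 4.41 and 2.30. The interval of the fifth, 1.49 to 3.62, overlapped those of all stretches but counted few wild-type positions, and differences between stretches were not tested.

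**Figure D3:**
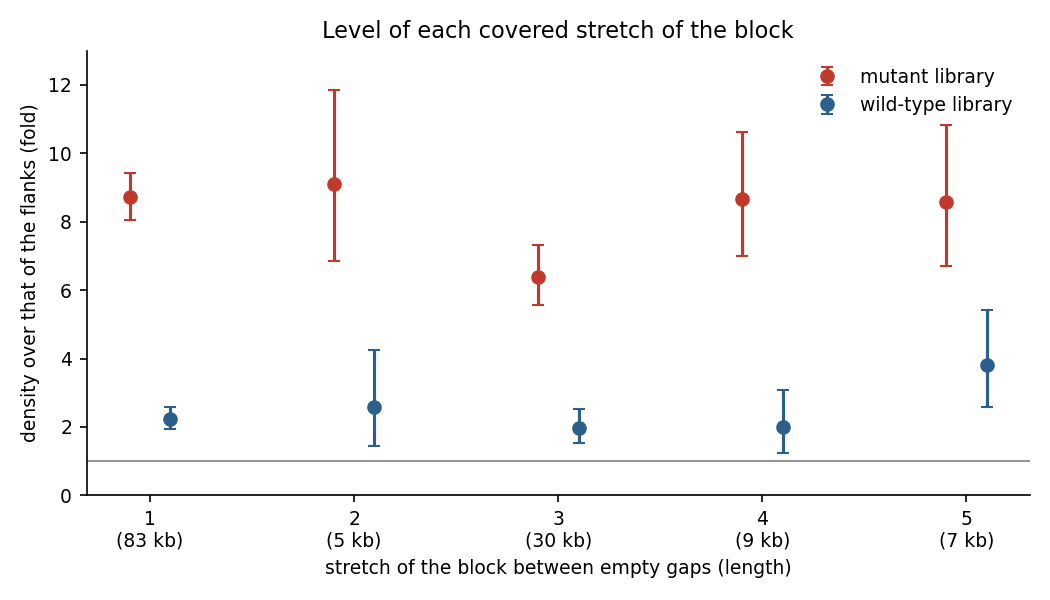
Density of each of the 5 covered stretches of the fitted block as a fold over the whole flanks, empty stretches included, for the mutant and the wild-type library. Points are folds, bars are 95% exact intervals that cover counting error only, and the line marks the level of the flanks. Mutant levels lie between 6.39 and 9.10 and wild-type levels between 1.98 and 3.80, with no overlap of their intervals in any stretch.

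The excess was spread along the block and not held in a few peaks. Over the 134 covered bins of 1 kb, the mutant library had a median of 9 positions, with 1 bin at 0 and a highest bin of 25 from 77721001, where the wild-type library held 4. The wild-type library had a median of 2 positions, with 16 bins at 0 and a highest bin of 9 from 77766001, where the mutant library held 12. The 10 fullest of these bins held 15.4% of the mutant and 19.3% of the wild-type positions of the block. The variance of the counts was 2.55 times their mean in the mutant block, against 1.23 in its flanks, and 1.36 times in the wild-type block, against 1.20. Mutant counts thus varied along the block beyond independent counting, for which this value is 1. For the same relative unevenness the value rises with the mean count. That mean was 10.1 in the mutant block against 1.31 in its flanks, and 2.63 against 1.24 in wild type. The value therefore does not show whether the block was more uneven than its flanks. Across the 134 bins the counts of the libraries had a Pearson r of 0.356 and a Spearman rho of 0.357, against 0.166 and 0.163 over 1727 covered flank bins. The bins share their sequence and mappability in both libraries and are not replicates. Such correlations also depend on the mean count, so those of block and flanks are not directly comparable.

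Repeated reads and strand had no part in choosing the block. Reads beyond the first at a position, which can be copies made by PCR, made up 7.96% of the mutant reads in the block (6.63 to 9.46%) and 8.70% in its flanks (7.62 to 9.88%). In wild type they made up 11.1% (8.17 to 14.6%) and 11.4% (10.1 to 12.7%). No position in the block held more than 3 reads in either library. Over chromosomes 1 to 19 the shares were 8.22% and 11.6%, with up to 60 and 84 reads at 1 position. The share of positions on the plus strand was 49.2% in the mutant block (46.5 to 51.9%) and 48.2% in the wild-type block (42.8 to 53.5%). For repeated reads the intervals of block and flanks overlapped in each library, and for strand those of the block included 50%.

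Pairs of reads on opposite strands 150 to 280 bp apart, set against pairs 500 to 760 bp apart per bp of distance, were 1.32 times as frequent in the mutant block (1.19 to 1.45) and 1.49 times in its flanks (1.20 to 1.84). In wild type the values were 1.15 in the block (0.765 to 1.70) and 1.98 in the flanks (1.59 to 2.46). Pairs share reads, so these intervals are too narrow. Unrelated reads pair more often where density is higher, which draws this measure towards 1 in the block. Its values in block and flanks are therefore not directly comparable. The libraries had 5 positions in common in the block, 1.42% of the wild-type positions (0.461 to 3.27%) and 0.370% of the mutant ones. Mutant positions spread evenly over both strands of the whole block, empty stretches included, would meet 0.428% of the wild-type positions. A spread over the covered part alone would meet more. In the flanks 3 positions were shared, 0.140% of the wild-type positions (0.0289 to 0.408%), where an even spread would give 0.0615%. With so few shared positions, block and flanks were not compared.

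The autosomes show how far such a plateau is from the usual. Of 11838 windows of 200 kb, each set against the 900 kb on either side, 2.15% in the mutant and 3.15% in wild type reached 1.5 times their flanks, and the core was among them in both. At 2 or more times the shares were 0.414% and 0.465%, and the core was among them in the mutant library alone. Its mutant level ranked 4 from the highest and its wild-type level 97. By the mutant level divided by the wild-type level, 3.16, the core ranked 1 of the 11571 windows in which each library had at least 50 positions, and the next window had 1.85. These ranks restate the choice of the core and are no test of it.

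Of the 3 windows with higher mutant levels, 2 held most of their positions in a few bins. They lay on chromosome 11 from 2900001, on chromosome 2 from 98500001 and on chromosome 17 from 39900001. Their levels were 20.2, 8.89 and 6.68 times the flanks in the mutant library and 19.6, 9.37 and 12.3 times in wild type. On chromosome 2 from 98500001 the 10 fullest bins of 1 kb held 89.0% of the mutant positions, and on chromosome 17 from 39900001 they held 92.6%. On chromosome 11 they held 23.9%, and in the core 14.9%. In the core 125 of 200 bins of 1 kb reached 3 times the flank level in the mutant library and 41 in wild type. The chromosome 11 window was also broad, with 78 such bins in the mutant library and 81 in wild type.

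**Figure D4:**
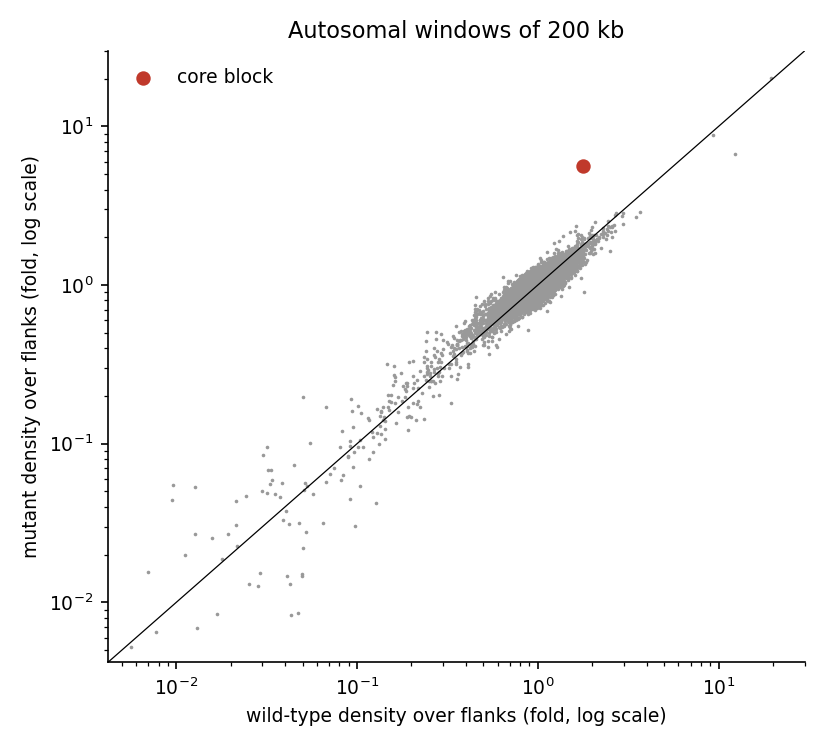
Density over the flanks of 11759 autosomal windows of 200 kb in wild type (horizontal, log scale) and the mutant library (vertical, log scale), with 1 grey point per window, the core in red and the line of equal levels. The 79 windows with 0 positions in a library are not drawn. The core, at 1.78 and 5.64, lies farther above the line than any other window in which each library had at least 50 positions.

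The longest run of raised bins lay in the core as well. The core was chosen on such ratios, so the run and the comparison with the rest of chromosome 2 restate that choice and are no test of it. The longest run of adjacent 10 kb bins with a ratio of 2 or more was the 14 bins from 77710001 to 77850000, with 1258 mutant and 312 wild-type positions. The next, on chromosome 13 from 118320001, was 5 bins long with 68 and 28 positions. On the rest of chromosome 2, no bin of 100 kb reached the ratio of the core. Among 1699 such bins with 100 or more positions, ratios ran from 0.550 to 2.06 with a median of 1.0. The highest, from 86600001, held 79 mutant and 37 wild-type positions, and the next, from 81600001 and 108800001, each held 110 and 58, a ratio of 1.83.

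Other blocks that differ between the libraries had another pattern of levels. The chromosome 17 block from 30600001 to 31100000 held 867 mutant and 1890 wild-type positions, a ratio of 0.442 (0.408 to 0.479). It stood at 0.967 times its flanks in the mutant library (0.896 to 1.04) and 2.01 times in wild type (1.90 to 2.13). The chromosome 17 block from 27400001 to 27600000 had levels of 1.01 (0.905 to 1.12) and 1.68 (1.55 to 1.83). The chromosome 15 bin from 6000001 to 6100000, with 118 mutant and 40 wild-type positions, had a ratio of 2.84 (1.97 to 4.18). Its levels were 1.15 times the flanks in the mutant library (0.95 to 1.39) and 0.425 in wild type (0.303 to 0.582). Of these 4 places, the core of chromosome 2 was the one whose intervals lay above the flanks in both libraries. This trait is not particular to the core, since 212 of 11838 autosomal windows of 200 kb reached 1.5 times their flanks in both libraries.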

How the data were processed

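Each deposited file lists 1 aligned read of 36 bp per line. Its score column, as the authors deposited it, is constant at 255 and was not used. Bowtie made the alignments, per the submitters' processing notes. Its version, and how it treated reads that align to several places, which bears directly on a repeat, were not given in the sources used here. All counts were made from the deposited read starts and ends.

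Distinct positions were counted in bins, and windows of 200 kb were kept with 500 or more flank positions in each library. Ratios and levels carry exact Clopper-Pearson 95% intervals of the split of positions, and no test compared the genotypes. Edges came from step models over 1 kb bins. The regions named are the 20 core bins, the bins next to the edges and the extreme bins of each flank. Members and lists were chosen with earlier results of these data known. Alternatives covered reads, strands, shift, scaling, depth, flanks, bins and thresholds. Software was matplotlib 3.10.9, pandas 2.3.3, scipy 1.17.1 and numpy 2.4.6 under Python 3.11.15.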

Additional observations from a re-analysis of the deposited data

How the results depend on the processing

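The ratio of the core lay between 3.16 (scaled to the flanks) and 3.31 (scaled to chromosome 2 without the window) under 7 alternatives, and that of the fitted block between 3.62 and 3.78 under 6. Levels moved with the flank used. For the core, the 250 kb on either side gave 5.24 times in the mutant library, the left flank 4.68 for the mutant and 1.5 for wild type, and the right flank 7.11 and 2.20. For the fitted block, the 250 kb on either side gave 6.48 in the mutant library, the left flank 5.77 and 1.61, the right flank 8.69 and 2.37, and leaving out empty stretches, chosen after the data were seen, 7.69 in the mutant library. With edges from 1 strand and density from the other, the block stood at 6.80 and 7.07 times for the mutant and at 1.87 and 1.96 times for wild type. The mutant start was 77710001 with 5 or 10 kb bins, and its end 77870000 with 10 kb bins. With shared edges the start was 77705001 with 5 kb bins, 77710001 with 10 kb bins and 77708001 from the mutant share, and the end 77870000 with 10 kb bins. These bin sizes limit where an edge can lie. With plus-strand reads alone, also added after seeing the data, the mutant and the shared end were both 77866000, and the wild-type start 77512001. The wild-type start was 77701001 with separate flank levels. Core bins with a ratio of 2 or more numbered 28 of 34 at 5 kb, beside 23 of 237 flank bins, and 9 of 10 at 20 kb, beside 1 of 88. The number of bins compared differs. Windows at 2 or more times their flanks numbered 49 of mutant and 55 of wild-type reads, where 255 and 373 reached 1.5. Other causes were not tested. No paired analysis was possible because each genotype has 1 library, and for the same reason no library could be left out. Counting error for the 353 wild-type positions in the block allows a level of 1.71 to 2.15, a narrower range than the choice of flank gives.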
